A study of Homo sapiens with 4 samples.

Results

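The genes described here are the nuclear genes for the subunits of respiratory complexes II, III and IV and of ATP synthase (complex V), with cytochrome c. Members were the protein-coding genes whose symbol is SDHA, SDHB, SDHC or SDHD, begins with UQCR, with COX followed by a digit from 4 to 8, or with ATP5, or is CYC1 or CYCS. The rule found 52 of the 61860 genes in the count table: 4 of complex II, 10 of complex III, cytochrome c itself, 17 of complex IV and 20 of ATP synthase. It used no measured value.

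Total RNA of cells labelled HT1376, an established line of bladder cancer cells, was sequenced in 4 samples. In 2 samples the cells had been kept for 48 h with the control that the labels call WFI, and in 2 with 1 nM Enfortumab vedotin (EV), in MEM with serum. EV is an antibody against nectin-4 that carries the microtubule poison monomethyl auristatin E. All samples come from this 1 line, no genetic change is labelled in any of them, and the labels do not say whether the samples of a group were separate cultures. The p-values below therefore reflect only how far these 4 samples differ, and that spread may be technical.

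The respiratory chain sits in the inner mitochondrial membrane. Complex II passes electrons from succinate to ubiquinone, complex III passes them on to cytochrome c, and complex IV passes them from cytochrome c to oxygen. Complexes III and IV pump protons, and ATP synthase uses the returning protons to make ATP. Complex II is encoded wholly in the nucleus, while complexes III, IV and ATP synthase also need subunits encoded in mitochondrial DNA.

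Many nuclear respiratory genes are known to carry sites for the ETS factor GABP or for NRF1 close to their start, so the promoters are shown first. RefSeq promoters (build GRCh38.p14) were matched for 39 of the 52 members. The 6 printed here span the 150 bases before and 30 bases after the annotated start. They are shown because they hold the range of responses: COX5B, COX6A1, COX8A and UQCRH were higher in EV, ATP5F1C was not called changed, and SDHA was lower. Capitals mark CCGGAAG or its reverse complement CTTCCGG, a core of the ETS motif, and GCATGCG or its reverse complement CGCATGC, a core of the NRF1 motif.
COX5B (chr2:97645912-97646091, plus strand): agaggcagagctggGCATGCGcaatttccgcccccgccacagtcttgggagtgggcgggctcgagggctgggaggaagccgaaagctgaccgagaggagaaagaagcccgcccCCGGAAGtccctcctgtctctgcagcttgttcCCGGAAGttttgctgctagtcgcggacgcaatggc
COX6A1 (chr12:120437963-120438142, plus strand): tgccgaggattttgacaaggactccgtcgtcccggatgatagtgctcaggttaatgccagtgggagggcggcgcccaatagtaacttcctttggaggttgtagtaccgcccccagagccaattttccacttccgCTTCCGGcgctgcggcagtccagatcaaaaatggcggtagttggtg
COX8A (chr11:63974470-63974649, plus strand): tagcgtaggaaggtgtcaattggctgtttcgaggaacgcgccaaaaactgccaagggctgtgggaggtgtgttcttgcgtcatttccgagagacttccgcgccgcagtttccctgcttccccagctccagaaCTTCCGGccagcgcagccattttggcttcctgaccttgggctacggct
UQCRH (chr1:46303548-46303727, plus strand): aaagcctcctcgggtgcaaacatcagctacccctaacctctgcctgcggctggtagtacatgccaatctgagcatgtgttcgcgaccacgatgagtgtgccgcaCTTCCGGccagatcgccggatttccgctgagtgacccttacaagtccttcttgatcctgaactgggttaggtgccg
ATP5F1C (chr10:7788027-7788206, plus strand): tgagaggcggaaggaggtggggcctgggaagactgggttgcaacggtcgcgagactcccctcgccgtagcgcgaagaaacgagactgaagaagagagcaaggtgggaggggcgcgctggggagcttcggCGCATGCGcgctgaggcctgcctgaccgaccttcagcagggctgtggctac
SDHA (chr5:218170-218349, plus strand): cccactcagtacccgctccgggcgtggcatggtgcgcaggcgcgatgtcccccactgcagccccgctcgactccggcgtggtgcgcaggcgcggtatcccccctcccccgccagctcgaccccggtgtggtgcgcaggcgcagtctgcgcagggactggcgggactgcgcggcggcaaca

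COX5B holds the ETS letters at 2 places, which begin at -37 and -5 from the start, and the NRF1 letters at -136. COX6A1, COX8A and UQCRH hold the ETS letters once, at -16, -18 and -46. The NRF1 letters of COX6A1 lie before its printed window. ATP5F1C holds the NRF1 letters on both strands, at -21 and -20, where the 2 matches overlap. In the window printed for SDHA neither spelling occurs. The printed genes that were higher in EV all hold the ETS letters, but the printed promoters were picked. Of the 21 tested members with a promoter that lacks these letters, 17 were higher too.

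Levels are given as CPM, in which each library's counts are divided by its size times its TMM factor, so a rise or fall is relative to the other genes of the sample. A gene was called higher or lower where edgeR's quasi-likelihood test gave a Benjamini-Hochberg adjusted p below 0.05 over the 17465 genes that passed the filter on low counts. Libraries held 19368791 to 20727175 counts. In this comparison 66% of all genes tested were called, 34.5% higher and 31.5% lower in EV, so a call by itself is common here.

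The label of the cells was set against marker lists. Of 17 urothelial and epithelial markers, KRT7, KRT8 and KRT18 were abundant, while KRT20 and UPK3A had at most 1 count, KRT19 at most 6, CDH1 at most 9 and EPCAM at most 26 in any library. Several markers of the labelled cell type were therefore at or near 0. The levels of the other markers on the list are not given singly here, and whether the cells are the labelled line was not tested. Of the 17, 10 passed the filter and 7 did not. All 10 were called higher in EV, with a median log2 fold change of 1.84, where 34.5% of all genes tested were called higher. Their log2 fold changes ran from 0.22 to 9.92. A marker near 0 in WFI passes the filter only through its counts in EV, which fixes its direction. The count of 10 therefore cannot be read against that share. The summed level of the 17 was 1623 and 1607 CPM in WFI against 3456 and 3497 in EV, most of it from the 3 abundant keratins, whose means went from 436 to 750.5 (KRT7), 733 to 1896 (KRT8) and 387 to 725 CPM (KRT18).

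Markers of other cell types also differed. The sum of 8 leukocyte and red cell markers was 1.55 and 2.29 against 43.2 and 43.3 CPM. ITGAM had 3 and 2 counts in WFI and 464 and 513 in EV, CD79A had 2 and 1 against 182 and 155, and CD14 had 26 and 42 against 128 and 146. ITGAM and CD79A passed the filter only through their counts in EV. The other 5 of that list, among them PTPRC at 1, 3, 4 and 9 and HBB at 0, 0, 0 and 4, stayed below the count filter. The sums of 5 endothelial markers were 2.03 and 2.49 against 7.09 and 9.35 CPM, and those of 6 striated muscle and sperm markers 0.29 and 0.48 against 4.01 and 5.11 CPM. The sums of 6 fibroblast markers were 10.2 and 11.5 against 12.7 and 9.09 CPM, which overlap. The part of these differences in the results below was not tested.

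Of the 52 members, 45 passed the filter, 40 were higher in EV, 2 were lower (SDHA and SDHC) and 3 were not called (UQCRC2, UQCRFS1 and ATP5F1C). Their median log2 fold change, EV over WFI, was 0.63, against 0.02 over all genes tested. In 41 of the 45 the change was below 2-fold, and 4 members were called with at least a 2-fold change, as were 30.8% of all genes tested. Of the 40 called higher, 36 changed by less than 2-fold. COX6B2 passed the filter only through its counts in EV, and without it 39 of 44 were higher, with the median still at 0.63. Both EV samples lay above both WFI samples in 42 members and below them in 3 (SDHA, SDHC and ATP5F1C), while groups failed to overlap in 82.8% of all genes tested, 42.1% with EV above and 40.7% with EV below.

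Summed over all 52 members, the level was 3790 and 3880 CPM in the WFI samples and 6086 and 5915 CPM in the EV samples, 1.56-fold higher in EV. These are bulk samples, so a change in the number of cells of a kind and a change in RNA per cell cannot be told apart. Complex II changed least in sum, from 170.3 and 179.8 to 186 and 200.3 CPM (1.10-fold). The sums for complex III went from 812 and 838 to 1247 and 1189 CPM (1.48-fold), and those for complex IV from 870 and 913 to 1509 and 1406 CPM (1.64-fold). For ATP synthase they went from 1856 and 1870 to 3014 and 2999 CPM (1.61-fold). In each of the 4 complexes both EV sums were above both WFI sums, with no test run on the sums.

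**Figure D1:**
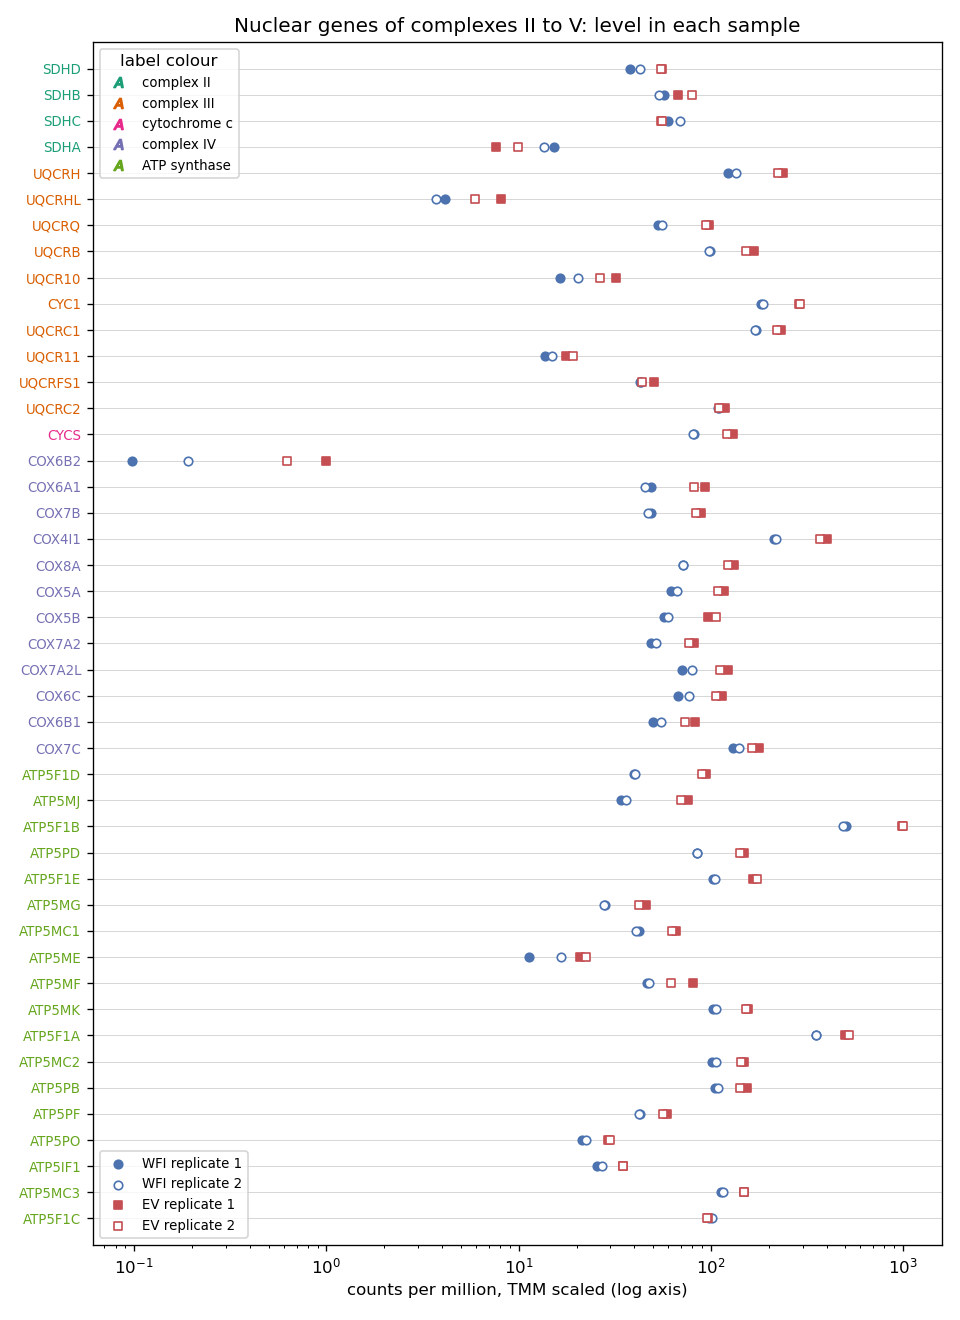
Level of each member that passed the count filter in each of the 4 samples, in CPM on a log axis, with circles for WFI and squares for EV and gene names coloured by complex. Both EV squares lie to the right of both WFI circles in 42 of 45 members, and SDHA, SDHC and ATP5F1C are the exceptions.

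Fold changes were related to gene length. Across the 13390 protein-coding genes tested that have an annotated length, the log2 fold change correlated with the merged exon length at a Spearman rho of -0.33, and across the 45 members at -0.27. Both are descriptions over genes of the same 4 libraries, and genes are not independent replicates. The members are short, with a median merged exon length of 2615 bases against 5123. When each sample's counts were corrected for a smooth dependence on length and GC content, 30 members were called higher, 29 of them also called higher without the correction, 2 were lower (SDHA and ATP5F1C), and the median fell to 0.38. With the shortest principal transcript as the length, an alternative chosen after seeing the data, 26 were higher, 25 of them shared, 2 were lower and the median was 0.21. Which length is right for the transcripts of these cells was not tested, so the calls that either correction ends are named with each complex.

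**Figure D2:**
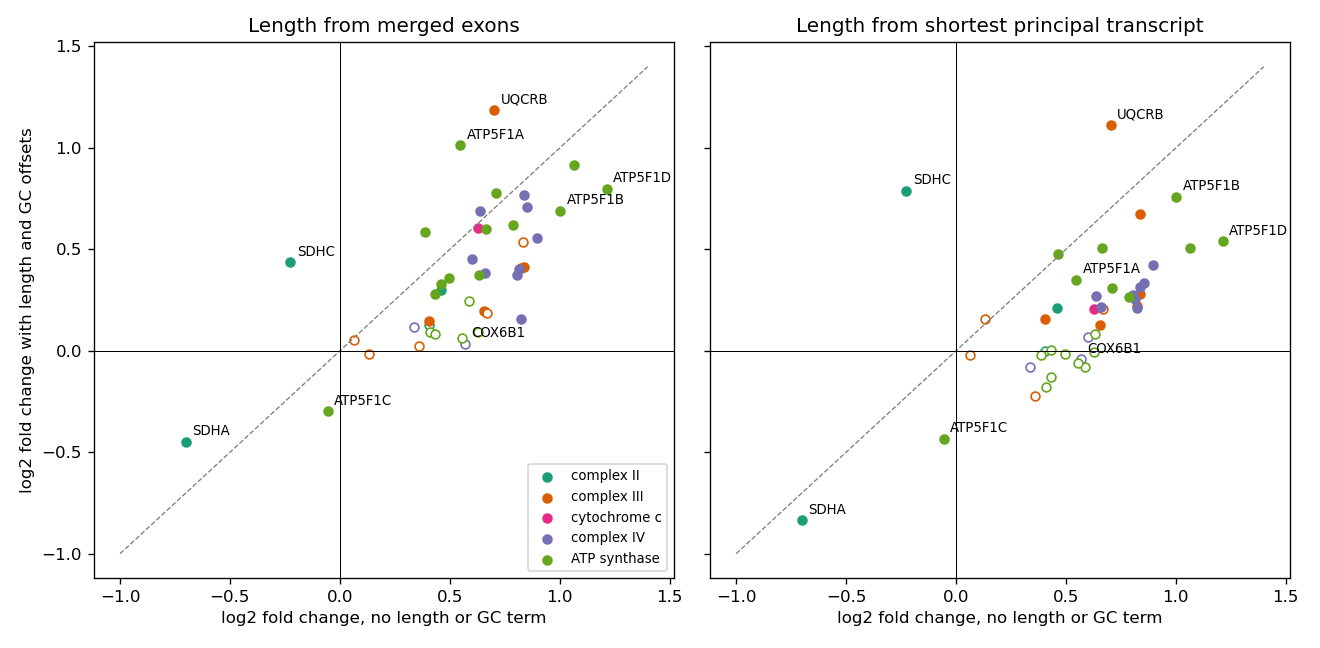
Log2 fold change (EV over WFI) of 44 members, COX6B2 left out, without correction (horizontal axis) and with length and GC offsets (vertical axis), for merged exons on the left and the shortest principal transcript on the right; filled points are called with the offsets, open points are not, and the dashed line marks equal values. Most points lie under the line, while UQCRB lies above it in both panels and SDHC moves from -0.23 to 0.44 and 0.79.

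In complex II, without length correction, SDHA and SDHC were lower in EV, SDHB and SDHD were higher, and the median of the 4 was 0.09. SDHA, the flavoprotein that oxidises succinate, was at 15.2 and 13.5 CPM in WFI and at 7.64 and 9.97 CPM in EV. Both EV samples were below both controls, a log2 fold change of -0.70 ± 0.17 (SE, n = 2 per group; edgeR quasi-likelihood, adjusted p = 0.00317). SDHC, a membrane anchor that binds ubiquinone and haem, was at 59.8 and 69.5 CPM in WFI and at 55.1 and 55.5 CPM in EV.

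The EV samples of SDHC nearly coincided and lay just under the lower control. Its log2 fold change was -0.23 ± 0.08 (SE; edgeR quasi-likelihood, adjusted p = 0.0273). That call depended on single libraries, the scaling, the tool, the filter and the length used: it was lost without WFI replicate 2, without EV replicate 1 and without EV replicate 2, with upper quartile scaling (edgeR adjusted p = 0.0751), with DESeq2 (adjusted p = 0.0863) and with a filter of 50 counts in at least 2 samples (edgeR adjusted p = 0.0563). With the length and GC correction it turned to 0.44 (merged exons, edgeR adjusted p = 0.000296) or 0.79 (shortest principal transcript, edgeR adjusted p = 4.4e-07). The annotated exons of SDHC are long, 14160 bases merged and 13566 in the principal transcript. SDHA kept its direction and its call under both corrections, at -0.45 and -0.84.

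SDHA also has close copies in the genome. Of the 50-base windows of its exons, 22.3% occur in another annotated gene, and the row of the pseudogene SDHAP1 held more counts than SDHA itself. SDHAP1 had 417, 434, 228 and 272 counts in WFI 1, WFI 2, EV 1 and EV 2, where SDHA had 314, 282, 139 and 193. Both rows were lower in EV, and how the counting divided reads between them is not given in the sources used here. Therefore the level of SDHA is uncertain.

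SDHB carries the iron-sulfur clusters of complex II. It was at 57.3 and 54.0 CPM in WFI and at 67.5 and 79.7 CPM in EV, a log2 fold change of 0.40 ± 0.08 (SE; edgeR quasi-likelihood, adjusted p = 0.00137). The groups did not overlap, but EV 2 stood well above EV 1. With the length and GC correction SDHB was no longer called, at 0.13 (edgeR adjusted p = 0.195). The second membrane anchor, SDHD, was at 38.0 and 42.8 CPM in WFI and at 56.0 and 55.1 CPM in EV, with a log2 fold change of 0.46 ± 0.08 (SE; edgeR quasi-likelihood, adjusted p = 0.000491). SDHD kept its call under both corrections, and 27.7% of its 50-base windows occur in other annotated genes.

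In complex III, 8 of 10 members were higher in EV, none was lower and UQCRC2 and UQCRFS1 were not called. The median log2 fold change was 0.66. CYC1, the haem protein cytochrome c1, was at 181 and 187 CPM in WFI and at 288 and 292 CPM in EV. Replicates lay close together and the groups far apart, with a log2 fold change of 0.65 ± 0.04 (SE; edgeR quasi-likelihood, adjusted p = 6.43e-08). With the length and GC correction CYC1 was still called, but at 0.20 and 0.13.

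The other nuclear-encoded electron carrier of complex III, the Rieske iron-sulfur protein UQCRFS1, was at 42.8 and 43.1 CPM in WFI and at 50.5 and 43.8 CPM in EV. EV 2 sat almost on the controls, and the log2 fold change of 0.13 had a 95% interval of -0.06 to 0.33. It was called higher without EV replicate 2 (0.22, edgeR adjusted p = 0.0273). Of the core proteins UQCRC1 and UQCRC2, only UQCRC1 was called. UQCRC1 was at 171 and 170.4 CPM in WFI and at 231 and 221 CPM in EV, a log2 fold change of 0.41 ± 0.04 (SE; edgeR quasi-likelihood, adjusted p = 5.97e-06), which the corrections lowered to 0.15 and 0.16, still called.

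UQCRC2 was at 109 and 110.0 CPM in WFI and at 118 and 111 CPM in EV. The EV samples were only just above the controls, with a log2 fold change of 0.06 and a 95% interval of -0.05 to 0.18. Under the corrections UQCRC2 was at 0.05 and -0.02, not called. The difference between the 2 core genes was not tested. Their uncorrected intervals, 0.32 to 0.50 for UQCRC1, do not meet.

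Of the small subunits that surround the core, UQCRH, the acidic hinge protein near cytochrome c1, was at 122 and 135 CPM in WFI and at 237 and 224 CPM in EV. UQCRQ was at 52.8 and 55.7 CPM in WFI and at 98.0 and 94.5 CPM in EV. UQCRB, known as a ubiquinone-binding subunit, was at 98.4 and 97.3 CPM in WFI and at 167 and 152 CPM in EV. In all 3 the groups were well separated, with log2 fold changes of 0.84, 0.83 and 0.70, each called by edgeR also under both length corrections. The corrected values were 0.41 and 0.28 for UQCRH, 0.41 and 0.22 for UQCRQ, and 1.19 and 1.11 for UQCRB, with merged exons first. UQCRH shares 29.4% of its 50-base windows with its copy UQCRHL, a member too, which took 2.59% to 3.30% of the counts of the pair in all 4 samples.

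UQCRHL itself was low, at 4.12 and 3.73 CPM in WFI and at 8.08 and 5.94 CPM in EV, and its call was lost without WFI replicate 2 and with the merged-exon correction. UQCR10 was at 16.3 and 20.5 CPM in WFI and at 32.1 and 26.6 CPM in EV. UQCR11, at 13.8 and 14.9 against 17.7 and 19.2 CPM, had a log2 fold change of 0.36. UQCR11 and UQCR10 were both no longer called under either correction, and the UQCR11 call was also lost with DESeq2, with no count filter, and without WFI replicate 1, WFI replicate 2 or EV replicate 2.

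Cytochrome c, encoded by CYCS, carries electrons from complex III to complex IV and triggers apoptosome assembly when it leaves the mitochondrion. CYCS was at 81.8 and 80.4 CPM in WFI and at 129.7 and 121 CPM in EV. Replicates lay close together and both EV samples were well above both controls. The log2 fold change was 0.63 ± 0.05 (SE; edgeR quasi-likelihood, adjusted p = 1.68e-06), with 0.60 and 0.21 under the 2 corrections, both called.

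In complex IV, all 12 members that passed the filter were higher in EV, 11 of 11 without COX6B2, and those 11 ranged from 0.34 to 0.90 on the log2 scale with a median of 0.80. Members that kept their call under the corrections, COX6B2 apart, were at 0.16 to 0.77 with merged exons and at 0.21 to 0.42 with the shortest transcript. The SD of the 11 uncorrected log2 fold changes was 0.17, against 0.29 in complex III and 0.29 in ATP synthase; these spreads were not tested against each other. COX4I1, a nuclear subunit that joins the catalytic core early, was at 213 and 218 CPM in WFI and at 400.0 and 369 CPM in EV. The groups were far apart, a log2 fold change of 0.84 ± 0.04 (SE; edgeR quasi-likelihood, adjusted p = 2.66e-08).

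COX5A and COX5B are subunits on the matrix side of the complex. COX5A was at 62.0 and 66.7 CPM in WFI and at 117 and 109.5 CPM in EV. COX5B was at 56.8 and 59.8 CPM in WFI and at 97.2 and 106 CPM in EV. Both rose by a like amount, 0.82 and 0.80, and both stayed called under both corrections. COX6A1 was at 48.6 and 45.4 CPM in WFI and at 93.2 and 81.7 CPM in EV, a log2 fold change of 0.90 ± 0.08 (SE; edgeR quasi-likelihood, adjusted p = 1.7e-06). The corrections lowered COX6A1 to 0.56 and 0.42, still called, and with merged exons COX4I1 (0.77), COX7B (0.71) and COX7A2L (0.69) were above it.

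COX6A1 shares 44.0% of its 50-base windows with other annotated genes, among them the pseudogene COX6A1P2, whose row held 59, 51, 101 and 110 counts. COX7B was at 48.6 and 46.9 CPM in WFI and at 88.7 and 83.8 CPM in EV. COX8A was at 71.9 and 71.8 CPM in WFI and at 132 and 123 CPM in EV. COX7B and COX8A changed by 0.85 and 0.82 on the log2 scale, and COX8A, whose principal transcript has 507 bases, fell to 0.16 and 0.21 under the corrections while still called. COX8A shares 27.7% of its 50-base windows with the annotated gene AP000721.1.

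COX7A2 was at 48.8 and 52.0 CPM in WFI and at 82.1 and 77.0 CPM in EV. COX7A2L, a relative of COX7A2 known for joining complexes III and IV into supercomplexes, was at 71.2 and 79.9 CPM in WFI and at 123 and 112 CPM in EV. COX6C was at 67.8 and 77.2 CPM in WFI and at 114 and 106 CPM in EV. These 3 changed by 0.60 to 0.66, with no overlap between groups, and of the 3 only COX6C lost its call, under the shortest-transcript correction.

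COX6B1, which faces the intermembrane space, was at 49.9 and 54.9 CPM in WFI and at 82.3 and 73.2 CPM in EV. COX7C was at 131 and 139.5 CPM in WFI and at 178 and 164 CPM in EV, a log2 fold change of 0.34. The groups were apart in both genes, but neither COX6B1 nor COX7C was called under either correction. COX6B2, the testis form of COX6B1, had 2 and 4 counts in WFI and 18 and 12 in EV. Its log2 fold change of 2.43 ± 0.74 (SE; edgeR quasi-likelihood, adjusted p = 0.0141) rests on these few reads, and the call was lost with DESeq2 and without WFI replicate 1, WFI replicate 2 or EV replicate 1.

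**Figure D3:**
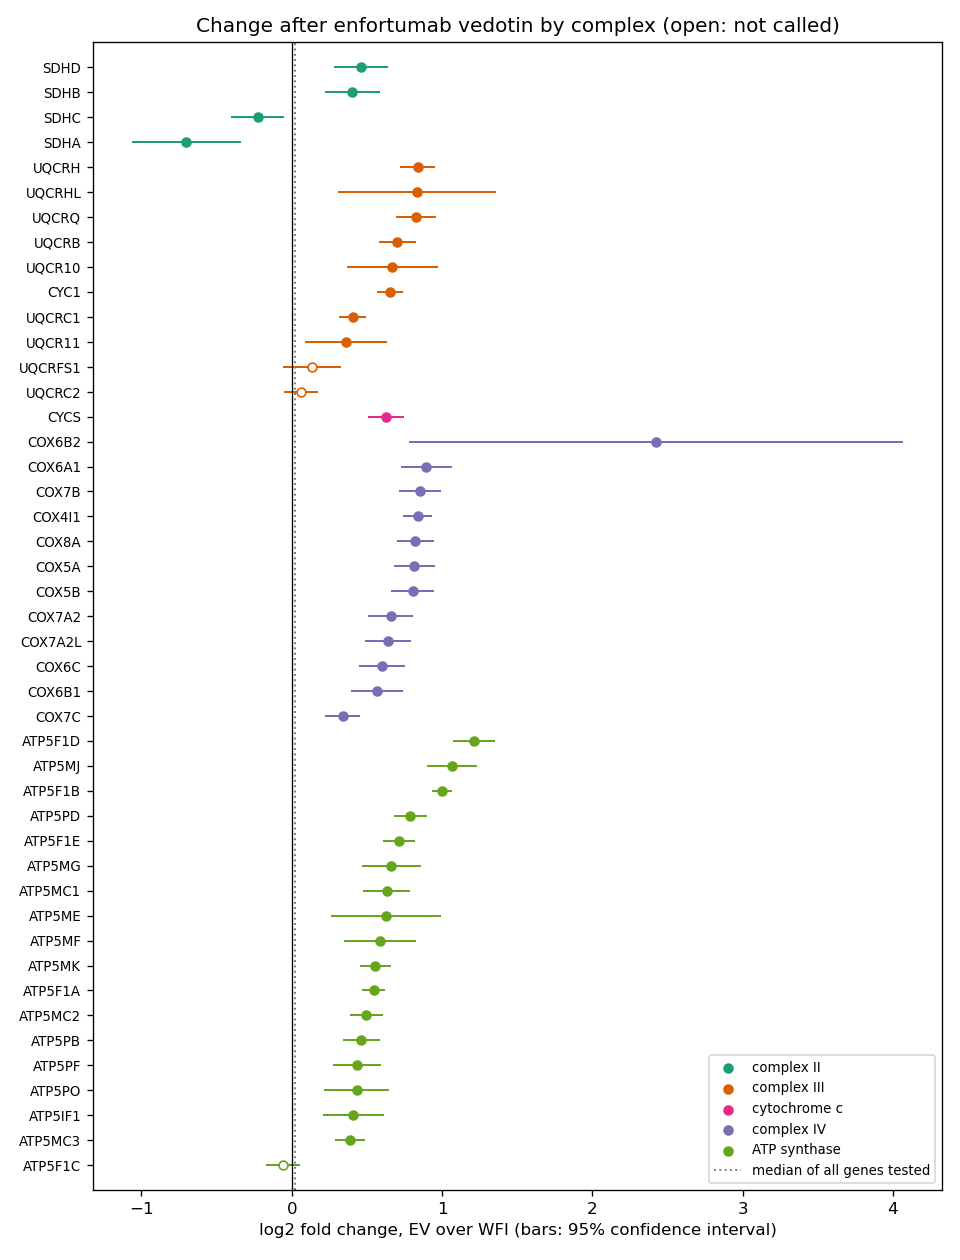
Log2 fold change of each tested member (EV over WFI) with its 95% interval from edgeR's quasi-likelihood fit, coloured by complex; open points were not called and the dotted line is the median of all genes tested. The interval of COX6B2 is the widest, and those of UQCRC2, UQCRFS1 and ATP5F1C include 0.

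In ATP synthase, 17 of 18 members that passed the filter were higher in EV, none was lower and ATP5F1C was not called. The median log2 fold change was 0.57, and members still called higher under the corrections were at 0.28 to 1.01 with merged exons (12 members) and at 0.26 to 0.76 with the shortest transcript (8 members). The subunits of the catalytic F1 head come first. ATP5F1D, the delta subunit of the central stalk, was at 39.7 and 40.2 CPM in WFI and at 94.8 and 90.4 CPM in EV. EV was more than 2-fold above the controls, at 1.21 ± 0.06 (SE; edgeR quasi-likelihood, adjusted p = 2.89e-08).

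ATP5F1B, the catalytic beta subunit, was at 506 and 489 CPM in WFI and at 986 and 1004 CPM in EV. Its level in EV was 2.00 times that in WFI, with a log2 fold change of 1.00 ± 0.03 (SE; edgeR quasi-likelihood, adjusted p = 2.91e-10). ATP5F1A, the alpha subunit that alternates with beta in the head, was at 351 and 352 CPM in WFI and at 501 and 525 CPM in EV. Without correction ATP5F1A changed by 0.55, with a 95% interval of 0.47 to 0.62 that does not meet that of ATP5F1B, 0.93 to 1.07. The order of the pair depended on the length used: with merged exons ATP5F1A was at 1.01 and ATP5F1B at 0.69, and with the shortest transcript they were at 0.35 and 0.76, all called. ATP5F1D was at 0.80 and 0.54 under the same corrections. ATP5F1E, the epsilon subunit, was at 103 and 105 CPM in WFI and at 165 and 175 CPM in EV, a change of 0.71.

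ATP5F1C encodes the gamma subunit, the rotating shaft of the head. It was at 98.1 and 101 CPM in WFI and at 96.6 and 94.9 CPM in EV. Both EV samples were slightly below the lower control, with a log2 fold change of -0.06 and a 95% interval of -0.17 to 0.06 (edgeR quasi-likelihood, adjusted p = 0.362). The interval excludes the change of every other F1 subunit measured. ATP5F1C was called lower under both corrections, at -0.30 (edgeR adjusted p = 0.000196) and -0.44 (edgeR adjusted p = 3.35e-06), and with upper quartile scaling its change was 0.001.

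Of the peripheral stalk, which holds the head still, ATP5PD was at 84.2 and 84.2 CPM in WFI and at 149 and 142 CPM in EV. ATP5PB was at 106 and 109 CPM in WFI and at 155 and 141 CPM in EV. The change of ATP5PD was 0.79 and that of ATP5PB 0.46, and both stayed called under both corrections. ATP5PF was at 42.7 and 42.5 CPM in WFI and at 59.0 and 56.1 CPM in EV, and ATP5PO, which links stalk and head, was at 21.5 and 22.4 against 29.2 and 29.9 CPM.

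Both ATP5PF and ATP5PO changed by 0.43, without overlap. ATP5PF was not called under either correction, and ATP5PO was lost under the shortest-transcript correction and without WFI replicate 1. ATP5PO also shares 69.0% of its 50-base windows with other annotated genes, among them the readthrough gene AP000311.1.

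The membrane ring of ATP synthase is built from identical c subunits made by ATP5MC1, ATP5MC2 and ATP5MC3, whose mature proteins are the same and whose import sequences differ. ATP5MC1 was at 42.1 and 40.7 CPM in WFI and at 65.8 and 62.7 CPM in EV. ATP5MC2 was at 101 and 106 CPM in WFI and at 149 and 144 CPM in EV. ATP5MC3 was at 112 and 116 CPM in WFI and at 149 and 149.6 CPM in EV. All 3 were higher, by 0.63, 0.50 and 0.39, and all 3 lost the call with the shortest-transcript correction, but not with merged exons.

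Among the other membrane subunits, ATP5MJ was at 34.0 and 36.1 CPM in WFI and at 76.5 and 70.3 CPM in EV, more than 2-fold higher (log2 1.07 ± 0.08, SE; edgeR quasi-likelihood, adjusted p = 3.57e-07). ATP5MG, which helps pair the synthase into dimers, was at 28.1 and 27.7 CPM in WFI and at 46.2 and 42.2 CPM in EV. Both stayed called under both corrections. ATP5ME, the e subunit that also serves in dimers, was at 11.3 and 16.7 CPM in WFI and at 20.8 and 22.4 CPM in EV.

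ATP5ME is less certain than its neighbours. Its controls differed from each other, its call was lost without WFI replicate 1 and under both corrections, and 61.6% of its exon bases lie opposite exons of MYL5 on the other strand. ATP5MF was at 46.8 and 47.9 CPM in WFI and at 80.5 and 61.7 CPM in EV, with EV 1 well above EV 2. ATP5MK was at 103 and 107 CPM in WFI and at 156 and 153 CPM in EV. ATP5MF and ATP5MK rose by 0.59 and 0.56, and neither was called under either correction. ATP5MF shares 39.1% of its 50-base windows with other annotated genes, among them the readthrough gene ATP5MF-PTCD1.

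ATP5IF1 differs from these in role, since it inhibits the enzyme when the proton gradient collapses. It was at 25.5 and 27.1 CPM in WFI and at 35.0 and 34.8 CPM in EV. The change was 0.41 ± 0.09 (SE; edgeR quasi-likelihood, adjusted p = 0.00243), in the same direction as the subunits, and the call was lost without WFI replicate 1 and under both corrections.

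Within sets of related genes, the share of counts was compared between samples. A share of raw counts does not rank the genes of a set, since their transcripts differ in length. For the c subunit, ATP5MC1 took 16.5% and 15.5% of the counts of its set in WFI and 18.1% and 17.6% in EV. ATP5MC3 took 43.9% and 44.0% in WFI and 40.9% and 42.0% in EV, and ATP5MC2 stayed between 39.6% and 41.0%. Per length the order of the genes depends on the transcript taken: in WFI 1 ATP5MC1 was at 20.2% per shortest and 48.6% per longest principal transcript, and ATP5MC3 at 40.6% and 14.5%. The count shares of ATP5MC1 and ATP5MC3 did not overlap between groups, with an exact permutation p of 0.333 (2-sided), the smallest that 2 against 2 samples can give.

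COX7A2 took 39.3% to 40.7% and COX7A2L 59.2% to 60.4% of the counts of their set in the 4 samples, with no separation of the groups. Per length this order does not hold: in WFI 1 they were at 49.5% and 50.2% per shortest principal transcript, and at 69.3% and 30.2% per longest. Forms known from muscle, lung, testis or other special tissues were near 0. COX7B2 and COX8C had no count in any sample, COX6A2 had 1 count in all, COX4I2 had 0, 0, 1 and 6, and COX7A1 had 6, 8, 2 and 0. The remaining members below the filter, ATP5MGL and the readthrough gene ATP5MF-PTCD1, had at most 3 counts in a library. At these depths 3 counts correspond to 0.145 CPM in WFI 1, so differences in such genes were not detectable.

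**Figure D4:**
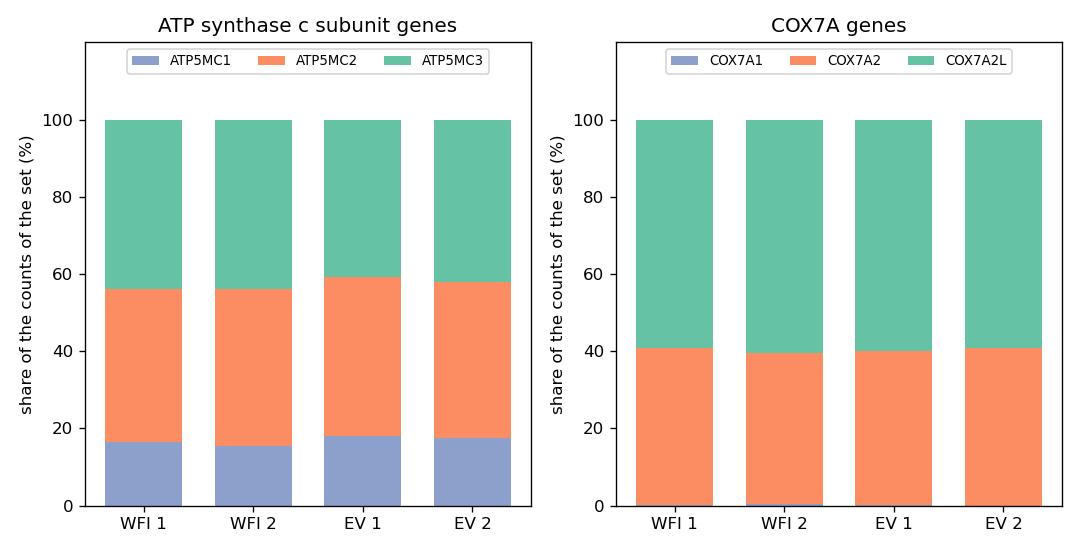
Share of the counts, in percent, that each gene takes of the ATP synthase c subunit set (left) and the COX7A set (right), 1 bar per sample. ATP5MC1 is at 15.5% to 18.1% and COX7A2L near 60% in every sample, and the share of COX7A1 is almost too small to see.

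Levels of different genes can be compared only per length, and the order below covers genes whose principal transcripts have like lengths, with which transcript the cells use not tested. In the 28 tested members where the longest was at most 1.5 times the shortest, COX4I1 stood first at 304 ± 5.07 CPM per kilobase in WFI (SD, n = 2), followed by ATP5F1B at 270.4 ± 6.60. UQCRH was next, at 213 ± 14.9. ATP5MF, CYC1, COX8A and ATP5PD followed between 139.7 and 155 CPM per kilobase. UQCRH, ATP5MF and COX8A share windows with other annotated genes, which makes their places less certain. SDHA was at 6.0 ± 0.51, SDHC at 4.77 ± 0.50 and UQCRHL at 1.80 ± 0.13, values that rest on reads shared with copies for SDHA and UQCRHL and on the 13566-base annotated transcript for SDHC, so their places are uncertain. In EV the first 3 kept this order, at 543, 541 and 381 CPM per kilobase, with COX4I1 and ATP5F1B apart by less than their spread, while ATP5F1C went from place 8 (92.3) to place 14 (88.8) of the 28.

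**Figure D5:**
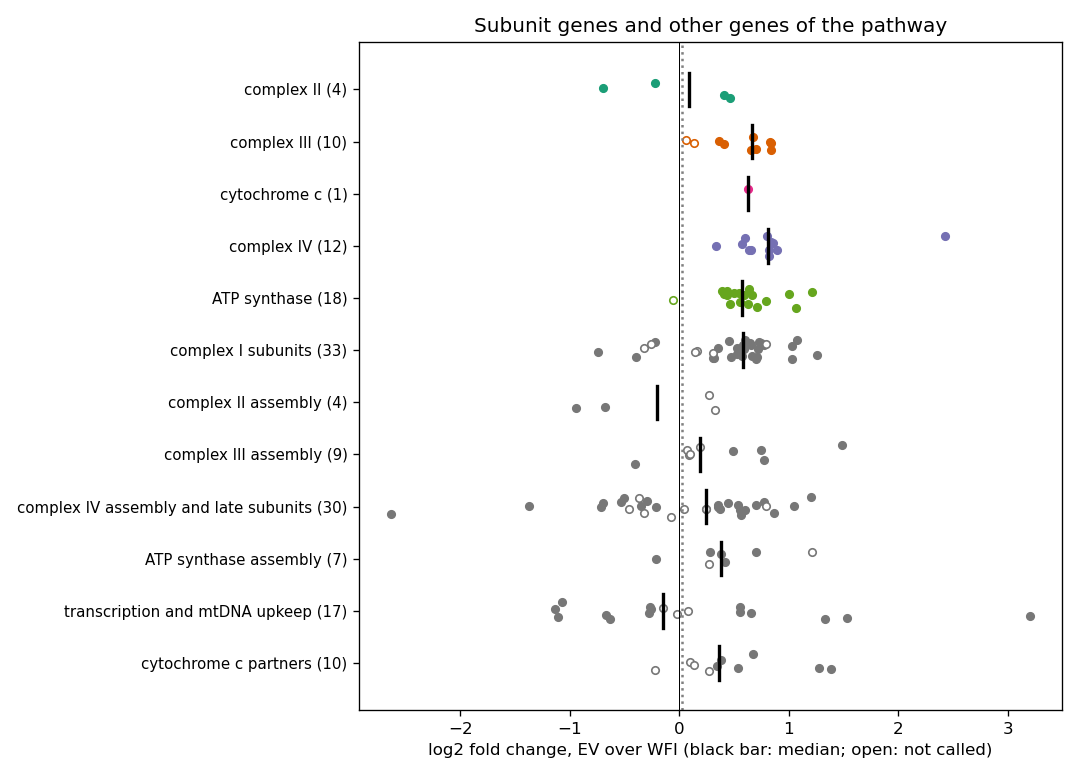
Log2 fold change (EV over WFI) of each tested gene, by complex (coloured) and for the other lists of the pathway (grey), with the number of genes in brackets; black bars are medians, open points were not called, and the dotted line is the median of all genes tested (0.02). Complex III, complex IV and ATP synthase lie almost wholly above 0, while complex II and all the grey lists lie on both sides.

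The ETS letters CCGGAAG, read on both strands, occurred in 15 of the 39 member promoters (38.5%), where a promoter is the 250 bases before and 50 after the start. They occurred in 14.2% of 15843 protein-coding promoters of the same length. Without length correction, all 15 genes with them were called higher in EV, with a median log2 fold change of 0.66. Of the 21 tested members with a promoter that lacks these letters, 17 were higher, 1 was lower and 3 were not called, with a median of 0.55. Of the genes with the letters, ATP5ME, ATP5MK, ATP5PF, COX6B1, SDHB and UQCR11 lost their calls under both length corrections. Among those without the letters, ATP5IF1, COX7C and UQCR10 did. The difference between the 2 sets was not tested.

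The NRF1 letters GCATGCG, read on both strands, occurred in 9 of the 39 member promoters (23.1%, against 5.1% of all): those of ATP5F1C, ATP5MC2, ATP5ME, ATP5PF, COX5B, COX6A1, CYCS, SDHB and SDHD. Without length correction, 8 of these 9 genes were higher in EV and ATP5F1C was not called. Their median was 0.50, against 0.64 in the 27 tested members without the letters. The YY1 letters AAGATGG also occurred in 9 (23.1% against 6.4%), among them SDHB, UQCRC1 and UQCRC2, of which 8 were higher and UQCRC2 was not called. The GC box GGGCGG was found in 56.4% against 58.5%, and CCAAT in 46.2% against 36.4%. On both strands, no spelling contains another. A match describes letters in a window and says nothing of whether a factor binds there.

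The genes of GABP and NRF1 moved apart. They are given because their motifs were searched, as is YY1 below. Genes of factors for the GC box and the CCAAT box are not given. GABPB1, the partner chain of GABP, was at 18.4 and 21.0 CPM in WFI and at 48.9 and 50.6 CPM in EV, a log2 fold change of 1.33 ± 0.10 (SE; edgeR quasi-likelihood, adjusted p = 4.01e-07). GABPA, its DNA-binding chain, was at 38.6 and 41.1 CPM in WFI and at 34.6 and 32 CPM in EV. GABPA was called lower (-0.26), a call lost with upper quartile scaling, with DESeq2, without WFI replicate 2, without EV replicate 2 and with either length correction. NRF1 was at 17.9 and 17.8 CPM in WFI and at 18.6 and 13.7 CPM in EV, where the groups overlapped, and it was not called, though it was without EV replicate 1 (-0.39, edgeR adjusted p = 0.0203).

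In the list of 17 genes for the transcription of respiratory genes and the upkeep of mitochondrial DNA, 6 were higher, 8 lower and 3 not called, with a median of -0.15. Over all genes tested 34.5% were called higher and 31.5% lower. TFB2M, a mitochondrial transcription factor, was at 21.8 and 22.9 CPM in WFI and at 60.6 and 68.7 CPM in EV (log2 1.53), and YY1 rose by 0.55. PPRC1, a coactivator related to PGC-1alpha, was at 139 and 141 CPM in WFI and at 86.8 and 89.5 CPM in EV, lower by a log2 fold change of -0.67. PPARGC1A, the gene of PGC-1alpha itself, had 6 and 1 counts in WFI and 12 and 49 in EV and was called higher. It passed the filter only through its counts in EV, which fixes its direction, and its EV samples differed, at 0.66 and 2.53 CPM. Its relative PPARGC1B was called lower, at -1.14. MTERF1, which ends mitochondrial transcription, was lower at -1.08.

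Complex I, the entry point for electrons from NADH, was set beside these complexes for comparison. Of 33 genes tested with the symbol of a nuclear complex I subunit, 24 were higher, 3 lower and 6 not called, with a median of 0.58. That is 81.8% called, against 66% of all genes tested. Chosen by symbol, this list also takes in NDUFA4, which belongs to complex IV and was called higher. The length and GC corrections left 18 (merged exons) and 12 (shortest transcript) higher and 5 and 6 lower. NDUFB10 and NDUFC1 rose by 1.08 and 1.03, while NDUFS1, the largest subunit of complex I, was at 134.7 CPM in both WFI samples and at 77.3 and 83.6 CPM in EV (-0.74), and NDUFV3 was at -0.40. The 6 mitochondrially encoded subunits of complexes III, IV and ATP synthase are listed at 0 in all 4 samples, so nuclear and mitochondrial subunits could not be compared.

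Among the assembly factors of complex II, 2 of 4 were lower, SDHAF1 (-0.95) and SDHAF4 (-0.68), and none was higher. That is 50% called, against 66% of all genes tested. SDHAF1, which helps insert iron-sulfur clusters in SDHB, had 118, 161, 79 and 51 counts, and SDHAF4 had 106, 87, 54 and 55. Both calls were lost when single libraries were left out, SDHAF1 without WFI replicate 2 or EV replicate 2 and SDHAF4 without any of the 4. The SDHAF4 call was also lost with upper quartile scaling, DESeq2 and no count filter.

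For complex III, 4 of 9 assembly genes were higher and 1 lower, with a median of 0.19. That is 55.6% called, against 66% of all genes tested. BCS1L, which inserts the Rieske protein, was at 24.7 and 24.0 CPM in WFI and at 39.7 and 42.1 CPM in EV (log2 0.75), and TTC19 rose by 0.49. LYRM7, the chaperone of the Rieske protein, was lower at -0.40, a call lost with DESeq2, without WFI replicate 1, without WFI replicate 2 and with either length correction.

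The complex IV list, 30 genes tested, held calls in both directions, with 13 higher, 9 lower and 8 not called (median 0.24). With the shortest-transcript correction 8 were higher and 11 lower. Uncorrected, 73.3% of the list was called, against 66% of all genes tested. NDUFA4, a late subunit of complex IV despite its name, was at 53.5 and 55.8 CPM in WFI and at 136 and 117 CPM in EV (log2 1.21). SURF1, needed early in the assembly of the catalytic core, rose by 1.05. COX15, which makes haem a, was at 51.6 and 54.4 CPM in WFI and at 31.5 and 33.6 CPM in EV (-0.70), and TMEM177, which acts on the COX2 subunit, was at -1.37.

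For ATP synthase, 4 of 7 were higher and 1 lower (71.4% called, against 66% of all genes tested). ATPAF1, the chaperone of the beta subunit, rose by 0.70 and the protease AFG3L2 by 0.42, while OXA1L, which inserts membrane subunits, was lower at -0.21. Among 10 partners of cytochrome c, 6 were higher and none lower (60% called). APAF1, the scaffold of the apoptosome, was at 54.1 and 54.9 CPM in WFI and at 125 and 139 CPM in EV (log2 1.28; edgeR quasi-likelihood, adjusted p = 1.97e-08), and CYB5R3, a reductase of cytochrome b5, rose by 0.38.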

How the data were processed

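The authors deposited 1 table of whole-number counts per gene for the 4 samples, with no normalization. The build was hg38, per the submitters' processing notes, and a directional library kit was used, per the labels' protocols. The annotation release is not given in the sources used here, nor are the aligner, the counter and its strand setting. Identifiers were matched to symbols (61757 of 61860), and lengths, overlaps and shared 50-base windows came from GENCODE 29 on the same build.

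Counts were tested with edgeR 4.0.16 in R 4.3.3 (limma 3.58.1): TMM, filterByExpr with its minimum count of 10, quasi-likelihood test with the group as the only term, adjusted p below 0.05. The SE is the log2 fold change divided by the square root of F. Length and GC corrections were per-sample offsets from natural splines with 5 degrees of freedom each. The shortest principal transcript covers 77.5% of all genes tested, 99.6% of the protein-coding ones and all 45 members. DESeq2 1.42.0 was an alternative, and the others were scalings, filters, a minimum fold and each library left out. On simulated data with 16086 genes, edgeR recovered 60% of genes changed by 0.5 on the log2 scale, 83.7% at 1, 95.8% at 2 and 100% at 4, with 4.6% of calls false. The simulation changed few genes, as many up as down, with a common dispersion and no dependence on length. These shares therefore cannot be carried over to the real calls.

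Members and lists were chosen with earlier results of these data known. Every member was eligible to be named. In the other lists the 2 genes with the smallest adjusted p in each direction were named. The genes of GABP, NRF1 and YY1, whose motifs were searched, were named as well, as were PPARGC1A and PPARGC1B, relatives of PPRC1. Genes of factors for the GC box and the CCAAT box were not on the lists. The NRF1 and YY1 letters were shortened to 7 bases after longer spellings that contain them had been searched. Statements of precision cover counting error and the spread of 2 samples per group.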

Additional observations from a re-analysis of the deposited data

How the results depend on the processing

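With 2 samples per group, 24 of the 45 tested members kept direction and call under every alternative but the minimum fold, and 35 when the length settings were left out too. Scalings moved the median of all genes by at most 0.06, and testing without a count filter moved it by 0.22. What causes the dependence on length was not tested.

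Requiring an absolute log2 fold change of at least 1 left 3063 genes higher and 2322 lower, and among the members 4 higher (1 in complex IV, 3 in ATP synthase, 0 in complexes II and III and cytochrome c) and 0 lower. The 2 lower members, both of complex II, became 1 with upper quartile scaling, DESeq2, 50 or more counts in at least 2 samples and, in complex II, both length settings. Leaving out 1 library at a time gave 35 to 40 members higher, 1 to 2 lower (1 to 2 in complex II), and 4926 to 5983 of all genes higher and 4611 to 5789 lower.

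Merged-exon offsets left 5 members higher in complex III and made 1 of ATP synthase lower. Shortest-transcript offsets left 26 members higher, 8 in ATP synthase, and 1 lower there. SDHC turned to 0.436 and 0.789 under them and UQCRFS1 to -0.016 (merged exons). With the shortest transcript, ATP5IF1 turned to -0.178, ATP5MC3 to -0.023, ATP5ME to -0.005, COX7C and ATP5MF to -0.078, ATP5MK to -0.058, ATP5MC2 to -0.016, COX6B1 to -0.042, UQCR11 to -0.224, ATP5PF to -0.127, UQCRC2 to -0.019, LYRM7 to 0.114 and GABPA to 0.078, and SDHB was at 0. ATP5F1C was at 0.001 with upper quartile scaling, UQCRC2 at -0.014 without a count filter, and NRF1, not called with all samples, was at -0.393 without EV replicate 1, where it was called, and at 0.044 without EV replicate 2.

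Replicate numbers share only a number: same-numbered deviations correlated at 0.0151 over genes and -0.0878 over members. With the replicate block, 5957 genes were higher and 5573 lower, with 40 members higher and 2 lower, and no member changed direction or call.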
